A study of Mus musculus with 4 samples.

Results

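Inflammatory cytokine receptors decide which signals from an inflamed tissue a Treg cell can read, and chromatin accessibility at their genes was described here in lymph node (LN) Treg cells that received normal or reduced IL-2 signals. The 9 receptor genes were *Il6ra*, *Il6st*, *Il27ra*, *Il12rb2*, *Il10ra*, *Ifngr1*, *Il18r1*, *Il1rl1* and *Il1r2*, picked by name, and every called ATAC-seq peak that overlapped a gene body or the 20 kb on either side was taken. Peaks of the 4 libraries that overlapped were merged, which gave 103 regions at these loci of 271773 on the assembled chromosomes. Of the 103, 8 were counted at both *Il18r1* and *Il1rl1*, which lie next to each other.

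The libraries came from WT mice and *Il2ra* mut/mut mice, 2 per genotype. *Il2ra* mut/mut mice carry a point mutation in CD25, the alpha chain of the IL-2 receptor, which lowers the IL-2 signal. All mice were female C57BL/6 Foxp3 Rfp/Rfp reporters, 6 to 8 weeks old and untreated, so the controls carried the reporter allele too, and RFP+ cells were sorted from LNs at 50000 cells a library. ATAC-seq marks DNA that the Tn5 transposase can reach, and the mutation is present in every cell of the mouse, not in Treg cells alone.

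As background, gp130, the product of *Il6st*, is the signalling chain shared by the receptors for IL-6 and IL-27, while the IL-6 receptor alpha chain (*Il6ra*) and WSX-1 (*Il27ra*) give each receptor its ligand. *Il12rb2* encodes the signalling chain of the IL-12 receptor, a feature of Th1 cells. *Il10ra* and *Ifngr1* encode the ligand-binding chains for IL-10 and interferon gamma, and all of these receptors signal through JAK kinases and STAT factors. *Il18r1* and *Il1rl1*, which encodes ST2, the receptor for IL-33, belong to the IL-1 receptor family and signal through MyD88, whereas *Il1r2* encodes a decoy receptor that binds IL-1 without signalling.

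The sequences under the summits of 8 regions that carry the results are given first, as the mm10 (GRCm38) plus strand from 100 bp before to 100 bp after the summit of the library where the region ranked highest. None touches an annotated exon. Capitals mark matches, on either strand, to short words of transcription factor families. The words searched were TTCNNNGAA for STAT factors and TGANTCA for AP-1, and ETS factors had the word ACCGGAA as well as the more common and shorter word AGGAAG. The word for RUNX factors was TGTGGT, that for forkhead factors such as Foxp3 was TGTTTAC, and GATA factors were searched for by the word AGATAA. T-box factors had AGGTGTGA as their word, while IRF factors were given by GAAANNGAA and the NF-kB family by GGGANTTTC. The word for SP and KLF factors, found in many promoters, was GGGCGG, the one for TCF factors was CTTTGA, and the last was a short part of the CTCF motif, namely CCCTC. Words could overlap each other. The first 4 are strong in every library, and the other 4 differed in rank between the genotypes.
*Il6ra* intron 9, chr3:89872348-89872548: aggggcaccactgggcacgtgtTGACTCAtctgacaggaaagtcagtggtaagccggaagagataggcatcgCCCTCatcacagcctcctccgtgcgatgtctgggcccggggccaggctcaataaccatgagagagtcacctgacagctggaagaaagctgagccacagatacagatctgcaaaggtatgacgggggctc
*Ifngr1* intron 2, chr10:19598127-19598327: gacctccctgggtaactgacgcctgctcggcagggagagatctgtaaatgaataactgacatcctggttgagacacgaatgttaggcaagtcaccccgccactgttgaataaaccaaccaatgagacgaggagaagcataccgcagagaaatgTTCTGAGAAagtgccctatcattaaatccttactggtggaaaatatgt
*Il18r1* intron 3, chr1:40475822-40476022: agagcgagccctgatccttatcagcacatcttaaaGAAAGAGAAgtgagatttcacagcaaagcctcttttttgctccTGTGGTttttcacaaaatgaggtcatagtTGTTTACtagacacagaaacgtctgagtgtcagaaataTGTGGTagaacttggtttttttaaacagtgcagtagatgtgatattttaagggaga
*Il10ra* downstream, chr9:45251373-45251573: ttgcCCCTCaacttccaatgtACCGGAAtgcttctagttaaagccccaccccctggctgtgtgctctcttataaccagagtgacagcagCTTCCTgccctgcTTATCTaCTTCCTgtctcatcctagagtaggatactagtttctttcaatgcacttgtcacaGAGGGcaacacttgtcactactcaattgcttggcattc
*Il6ra* intron 1, chr3:89911271-89911471: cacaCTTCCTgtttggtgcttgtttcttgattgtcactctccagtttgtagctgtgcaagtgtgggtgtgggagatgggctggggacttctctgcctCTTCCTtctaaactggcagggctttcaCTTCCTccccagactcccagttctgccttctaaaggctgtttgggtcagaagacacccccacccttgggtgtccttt
*Ifngr1* intron 1, chr10:19597140-19597340: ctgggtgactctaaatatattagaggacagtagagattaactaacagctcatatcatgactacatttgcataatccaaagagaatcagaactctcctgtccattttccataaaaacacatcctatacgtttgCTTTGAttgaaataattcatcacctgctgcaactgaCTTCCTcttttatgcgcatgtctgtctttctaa
*Il12rb2* intron 8, chr6:67317906-67318106: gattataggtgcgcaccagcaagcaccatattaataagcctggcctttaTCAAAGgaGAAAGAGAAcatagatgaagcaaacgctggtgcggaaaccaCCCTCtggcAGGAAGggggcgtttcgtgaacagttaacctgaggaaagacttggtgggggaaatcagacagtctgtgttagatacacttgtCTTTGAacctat
*Il1rl1* upstream, chr1:40428987-40429187: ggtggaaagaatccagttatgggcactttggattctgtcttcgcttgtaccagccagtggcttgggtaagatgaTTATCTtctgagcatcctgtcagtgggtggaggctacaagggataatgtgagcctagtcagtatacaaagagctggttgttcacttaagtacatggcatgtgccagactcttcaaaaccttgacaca

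The *Il6ra* intron 9 window holds an AP-1 word, the *Ifngr1* intron 2 window a STAT word, the *Il18r1* intron 3 window a forkhead word between RUNX words, and the *Il10ra* window ETS words and a GATA word. Over the 45 regions called in all 4 libraries, a RUNX word was present in 28.9% of the windows, against 19.2% of the 38279 such windows genome-wide. A forkhead word was present in 8.89% (4 of 45) against 2.73%, an AP-1 word in 13.3% against 8.00% and a STAT word in 8.89% against 5.92%. A GATA word was present in 13.3% against 7.66% and a TCF word in 17.8% against 13.1%. ETS words were present in 37.8% at the receptors and 37.4% genome-wide, and SP/KLF words were found in 17.8% against 23.5%. The CTCF word was in 44.4% against 50.8% and an IRF word in 4.44% against 6.67%. No window at the receptors held an NF-kB or T-box word, against 1.15% and 0.946% genome-wide. The median GC content was 49.8% at the receptors and 52.2% genome-wide. These matches are descriptions of letters, and 4 windows are a small number.

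Peak values are those of the peak caller. Fold enrichment compares reads at the summit with the background of the library, and the percentile places a peak by its −log10 p among all peaks of its own list, so that libraries of unknown depth can be set side by side. The lists held 112569 to 142732 peaks. The fold values of 100% of the peaks were whole numbers of reads (within 0.02 of a read) over one background per library, and the median peak rested on 8 to 10 reads at its summit. WT 2 had the highest median fold over regions called in all 4 libraries, 10.6, against 7.60 in WT 1, 8.52 in *Il2ra* mut/mut 1 and 8.75 in *Il2ra* mut/mut 2. Of 9 Treg and CD4 T cell markers, 8 had a called peak at a transcription start site (TSS) in all 4 libraries, *Foxp3*, *Il2ra* and *Ctla4* among them, and the exception was *Trac*. Of 13 markers of CD8 T, B, myeloid and NK cells, 2 did (*Cd8b1* and *Ebf1*) and 10 had none in any library. The part of other cells in the results was not tested.

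Of the 103 regions, 45 (43.7%) were called in all 4 libraries, against 14.1% of all merged regions. The share was 50.7% at the 11 signalling genes of these pathways, 48.1% at the Treg and CD4 T cell markers, 27.2% at 16 other receptor chains and 30.4% at the markers of other cells. Of the rest, 13 were called in 3, 18 in 2 and 27 in 1. The regions called once were weak, with fold enrichments of 3.14 to 6.06, and 14 of them came from WT 2. The libraries called 67 (WT 1), 85 (WT 2), 55 (*Il2ra* mut/mut 1) and 75 (*Il2ra* mut/mut 2) of the 103, and the 2 genotypes therefore overlapped. Of all merged regions, the same libraries called 38.8%, 44.3%, 42.5% and 49.4%, so that *Il2ra* mut/mut 1 was above WT 1 genome-wide and below it at the receptors. *Il2ra* mut/mut 1 was the library missing from 9 of the 13 regions called in 3 libraries, against 27.9% of such regions genome-wide. The nearest annotated TSS was that of one of the 9 genes for 44 of the 103 regions. Some of the rest may belong to neighbouring genes, while others lay inside *Il6ra* and were nearest to the TSS of *Gm42809*, an antisense gene.

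**Figure D1:**
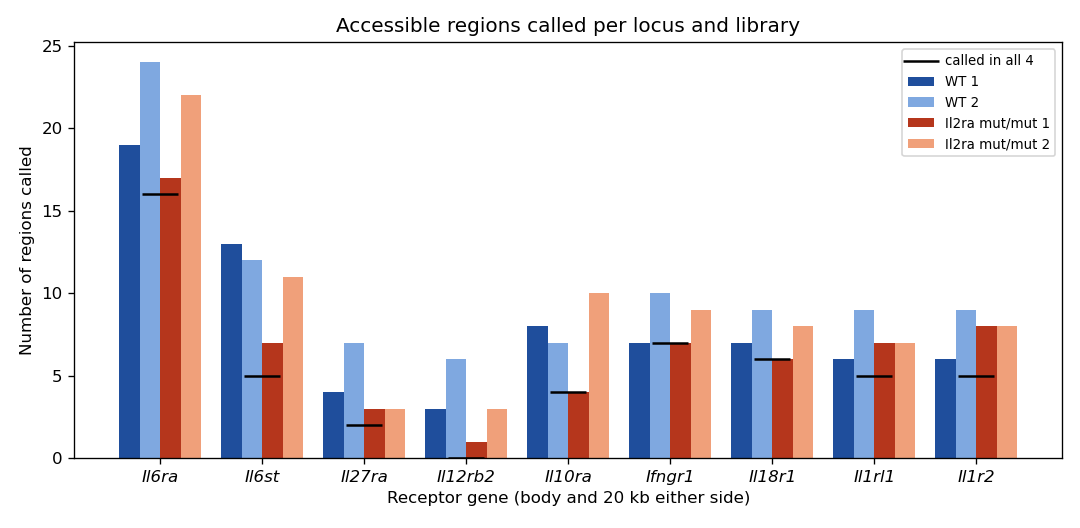
Number of merged regions called at each receptor locus (gene body and 20 kb either side) in each of the 4 libraries (bars), with the number called in all 4 as a black line. *Il6ra* held the most, 16 in all 4 libraries, and *Il12rb2* held none.

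TSS regions were open at 7 of the 9 genes in all 4 libraries, against 52.4% of 21938 protein-coding genes. The exceptions were *Il12rb2* and *Il1rl1*. Among other genes of these pathways, 12 of 16 receptor chains and all 11 signalling genes (the JAKs, STATs, *Myd88*, *Irak4*, *Traf6*, *Socs1* and *Socs3*) had such a peak, and *Il1r1* and *Il23r* had none in any library. These peaks lay within 1 kb of an annotated TSS. With a peak required over the TSS base itself, 6 of the 9 genes had one in all 4 libraries, and *Il1r2* dropped out.

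**Figure D2:**
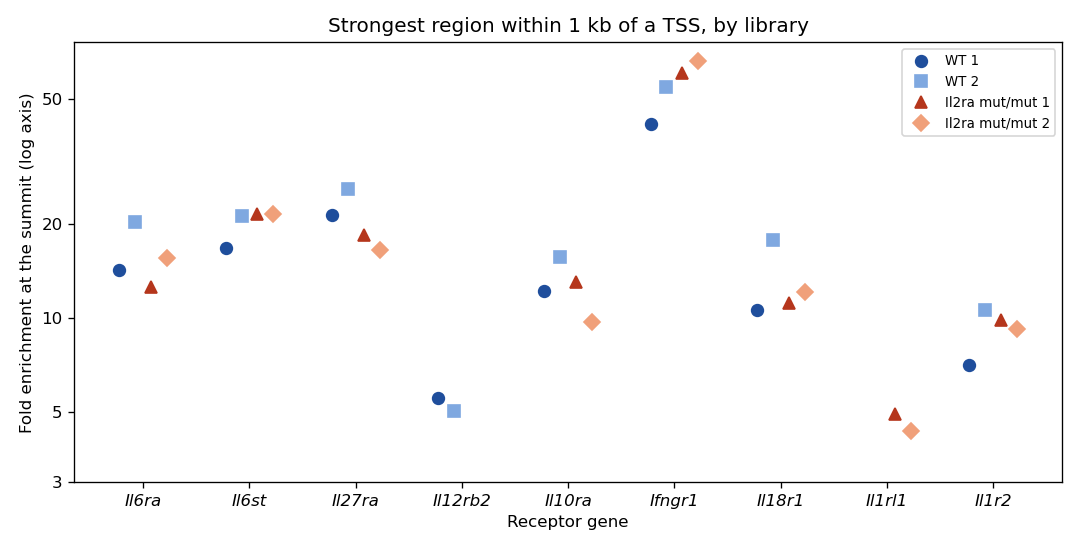
Fold enrichment (log axis) of the highest-ranking region within 1 kb of an annotated TSS of each gene, one point per library, with no point where no peak was called. *Ifngr1* lies highest, between 41.5 and 66.1, while *Il12rb2* has points in the WT libraries only and *Il1rl1* in the *Il2ra* mut/mut libraries only.

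Of the IL-6 and IL-12 receptor family, *Il6ra* (chr3:89864059-89913196, minus strand) was the most densely open of the 9. It held 26 regions, 16 of them in all 4 libraries, or 1.79 per 10 kb of window, which lay at percentile 99.3 of all protein-coding genes. A region in its intron 9 (chr3:89872057-89872928), 40.7 kb into the gene, had the highest fold enrichment of the 9 loci in 3 of the 4 libraries, and in *Il2ra* mut/mut 2 the *Ifngr1* promoter was higher, at 66.1. Its fold enrichment was 60.8 in WT 1, 73.3 in WT 2, 65.5 in *Il2ra* mut/mut 1 and 54.9 in *Il2ra* mut/mut 2, and its percentile lay between 99.0 and 99.5. The genotypes overlapped there. The promoter region, over exon 1, was far lower, at 14.2 and 20.2 in the WT libraries versus 12.6 and 15.6 in the mutant libraries. A region at the far end of the gene, over the last exon (chr3:89864038-89864550), reached 14.2 and 26.3 in the WT libraries versus 15.7 and 19.4 in the mutant libraries.

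Of the weaker *Il6ra* regions, 4 differed in rank between the genotypes, in intron 1, intron 3 and the last exon. The intron 1 region 1.88 kb into the gene had 14 and 17 reads at the summit in WT, against 9 and 11 in the mutant libraries, at percentiles 81.9 and 82.1 against 39.1 and 76.5, and the genotypes did not overlap. The intron 1 region 13.6 kb into the gene had percentiles of 80.3 and 81.0 in the WT libraries versus 78.9 and 25.3 in the mutant libraries, so that one mutant library lay close to WT and the other far below. In reads at the summit this was 13 and 16 against 14 and 7, and the reads of the genotypes overlapped. In the last exon (chr3:89868983-89869453), the percentiles were 62.4 and 79.9 in WT versus 62.3 in *Il2ra* mut/mut 2, with no peak in *Il2ra* mut/mut 1. In reads at the summit this was 9 and 15 against 9, so that WT 1 and *Il2ra* mut/mut 2 had equal reads. A region in intron 3 was called in both WT libraries, at 12 and 6 reads, and in neither mutant library.

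By the irreproducible discovery rate (IDR), which keeps regions whose ranks repeat between the libraries of a genotype, *Il6ra* had 7 regions with an open chromatin region (OCR) common to the genotypes, 3 with a WT-unique and 2 with an *Il2ra* mut/mut-unique OCR. Being unique by IDR did not mean being absent from the other genotype. The WT-unique OCR 4.29 kb into the gene was called in every library, at 7.60 and 9.09 in the WT libraries versus 8.52 and 5.35 in the mutant libraries. The *Il2ra* mut/mut-unique OCR in intron 6 (chr3:89880092-89880934) stood at 8.07 and 6.32 in *Il2ra* mut/mut, and at 4.05 and 8.08 in WT. The other one, 3687 bp beyond the gene, was 5.83 in both mutant libraries and 5.07 and 9.60 in WT.

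**Figure D3:**
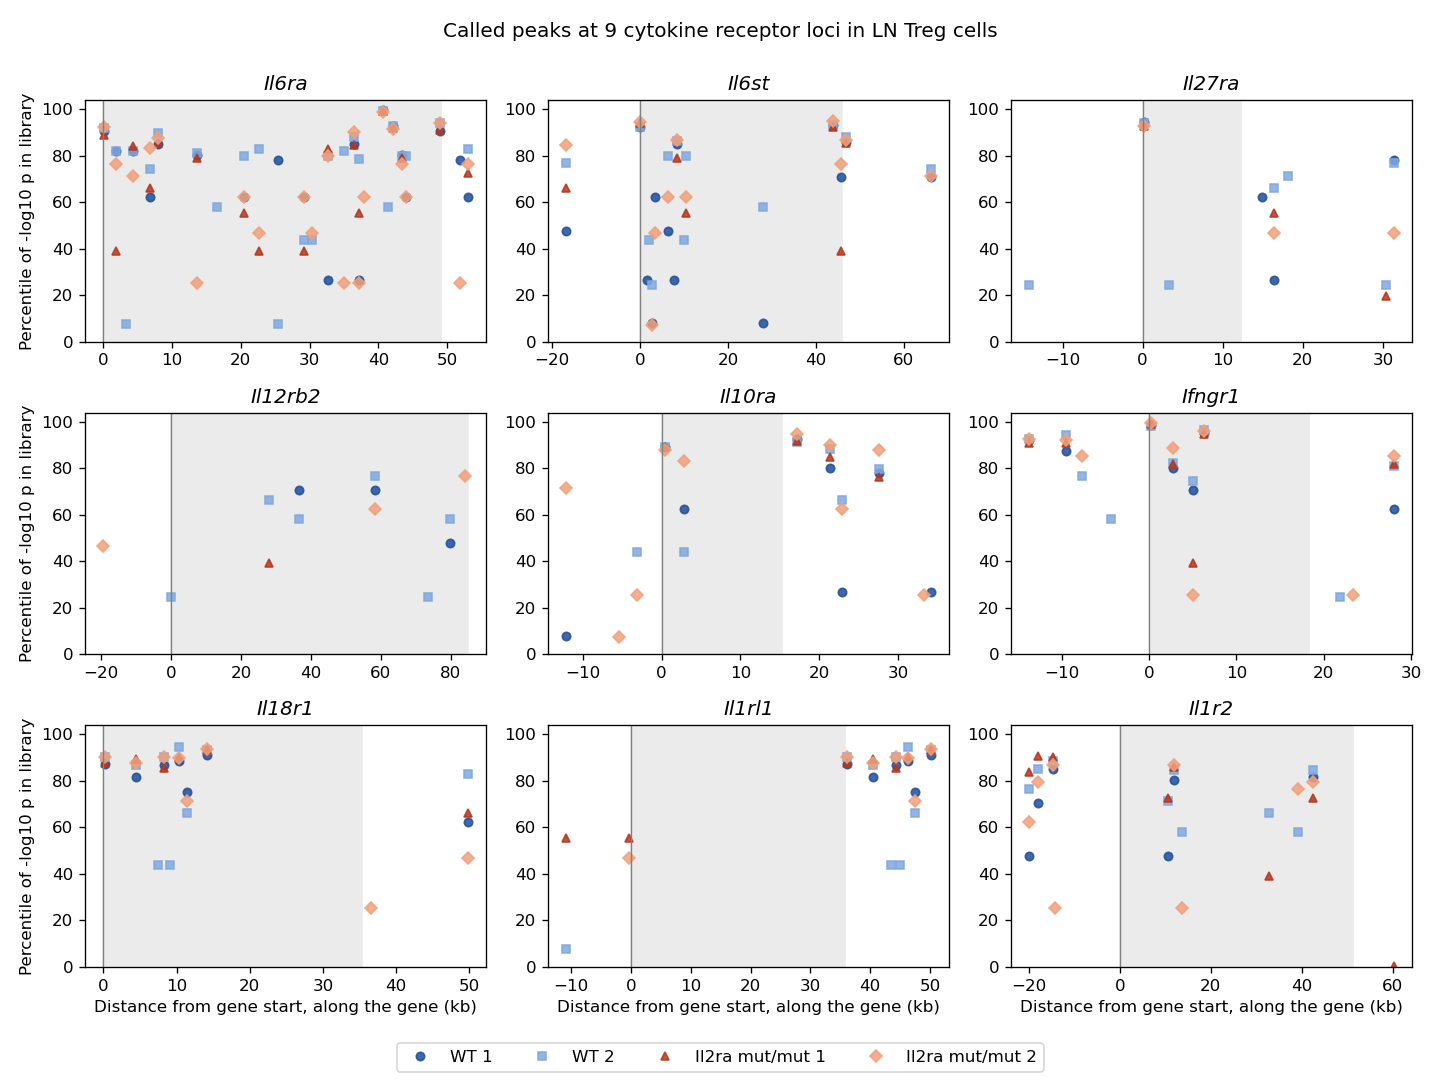
Percentile of −log10 p of each called region against its distance from the start of the gene, along the direction of transcription, in kb, with the gene body shaded and one symbol per library. The points of the 4 libraries fall together at high percentiles, as at 40.7 kb in *Il6ra*, and spread apart at low ones.

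*Il6st* (chr13:112464070-112510086, plus strand) held 16 regions, 5 in all 4 libraries. Its promoter region had a fold enrichment of 16.7 and 21.2 in the WT libraries versus 21.5 and 21.4 in the mutant libraries, and a region over exon 17 (chr13:112507635-112508188) reached 18.2 and 23.7 in the WT libraries versus 17.9 and 22.8 in the mutant libraries. A further region 500 bp beyond the gene was called at 9.62, 14.1, 9.42 and 9.23 in the same order. These strong regions overlapped between genotypes or differed by less than 2 percentile points. A weak region in intron 8 was called in WT alone, at 6 and 9 reads, and a WT-unique OCR 19940 bp beyond the gene, where the nearest TSS is that of *Il31ra*, was called at 5.57 and 6.57 in WT, and reached 5.35 in *Il2ra* mut/mut 2.

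*Il27ra* (chr8:84030294-84042589, minus strand) was a compact locus with 1 strong region, its promoter, which also covers exon 2. The fold enrichment there was 21.3 and 25.8 in the WT libraries versus 18.4 and 16.5 in the mutant libraries. The WT values lay above both mutant values, but the mean percentiles were only 1.47 points apart. The other region called in all 4 libraries was weak, at 4.05 to 5.56, and nearest to *Palm3*. A WT-unique OCR 18604 bp beyond the gene (chr8:84010777-84011690) had percentiles of 78.2 and 76.7 in WT versus 46.7 in *Il2ra* mut/mut 2, with no peak in *Il2ra* mut/mut 1. It covers the TSS of *Mir1199* and may not belong to *Il27ra*.

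*Il12rb2* (chr6:67291318-67376188, minus strand) stood at the other end from *Il6ra*. It is the longest of the 9 genes, at 84.9 kb, and none of its 8 regions was called in all 4 libraries. WT 1 called 3, WT 2 called 6, *Il2ra* mut/mut 1 called 1 and *Il2ra* mut/mut 2 called 3, and the highest fold enrichment was 7.07. The promoter at the start of the gene was called in WT 2 only, at a fold enrichment of 4.04. Of the 4 regions called in at least 2 libraries, 3 ranked higher in WT. The intron 8 region (chr6:67317803-67318244) had 10 and 13 reads in WT, 9 in *Il2ra* mut/mut 2 and no peak in *Il2ra* mut/mut 1. A region at an internal TSS (chr6:67339602-67339869) had 10 and 9 reads in WT and was called in neither mutant library, and an intron 14 region had 8 and 9 reads in WT and was likewise not called in the mutant. The median peak of either WT library had 8 reads, and the lowest 5.

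Among the ligand-binding chains, *Ifngr1* (chr10:19591949-19610229, plus strand) had the strongest promoter of the 9 genes. Its fold enrichment was 41.5 in WT 1, 54.6 in WT 2, 60.6 in *Il2ra* mut/mut 1 and 66.1 in *Il2ra* mut/mut 2, and its percentile was 98.5 and 98.4 in the WT libraries versus 99.2 and 99.4 in the mutant libraries. Both mutant libraries lay above both WT libraries, with a WT minus mutant difference of −0.903 percentile points in the mean, far under the 20 points set for a shift. An intron 2 region (chr10:19597960-19598562), which holds the STAT word, had values of 22.8 and 36.4 in the WT libraries versus 23.3 and 27.2 in the mutant libraries. A region 13019 bp upstream reached 16.2 and 22.7 in the WT libraries versus 15.3 and 16 in the mutant libraries.

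Between these strong regions, the region that ends in exon 2 of *Ifngr1* (chr10:19596530-19597425) ranked higher in WT. Its percentiles were 70.7 and 74.5 in the WT libraries versus 39.1 and 25.3 in the mutant libraries, and the genotypes did not overlap. In reads at the summit this was 10 and 12 against 9 and 7. An *Il2ra* mut/mut-unique OCR lay 9478 bp beyond the gene, nearest to *Il22ra2*, at 7.63 and 8.26 in *Il2ra* mut/mut and at 5.07 and 8.59 in WT, so that WT 2 was above both mutant libraries.

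*Il10ra* (chr9:45253837-45269149, minus strand) had no genotype-unique OCR and no shifted region. Its promoter region had a fold enrichment of 12.2 and 15.7 in the WT libraries versus 13 and 9.72 in the mutant libraries. The strongest region lay 1138 bp beyond the end of the gene (chr9:45251181-45252699), at 16.7 and 19.2 in the WT libraries versus 16.6 and 21.9 in the mutant libraries, and a second one 5745 bp beyond the end was at 7.09 and 14.1 in the WT libraries versus 8.97 and 12.1 in the mutant libraries. The genotypes overlapped at all 3.

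In the IL-1 receptor family, the windows of *Il1rl1* and *Il18r1* (chr1:40465552-40500854, plus strand) share regions. Those called in all 4 libraries lay at the promoter and in the first introns of *Il18r1*. The *Il18r1* promoter region had a fold enrichment of 10.6 and 17.7 in the WT libraries versus 11.2 and 12.1 in the mutant libraries. In the intron 3 region with the forkhead and RUNX words (chr1:40475454-40476366), the values were 11.7 and 28.8 in the WT libraries versus 14.4 and 11.7 in the mutant libraries, a spread that was widest between the WT libraries. The intron 4 region (chr1:40479397-40480053) had 14.7 and 24.3 in the WT libraries versus 20.2 and 19 in the mutant libraries. No region of *Il18r1* was genotype-unique or shifted.

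*Il1rl1* itself (chr1:40429570-40465415, plus strand) had no called region inside its body in any library apart from the *Il18r1* promoter region, which touches its last exon. The 5 regions of its window called in all 4 libraries were those of *Il18r1*. A region 125 bp upstream of its TSS (chr1:40428976-40429445) was called in *Il2ra* mut/mut only, at a fold enrichment of 4.93 and 4.37, or 10 and 8 reads. It was the only region of the 103 called in both mutant libraries and neither WT library, and with peaks joined at an overlap of 50% instead of 1 bp none was.

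*Il1r2* (chr1:40074079-40125231, plus strand) was moderately open. Its best region near a TSS lay in intron 1 (chr1:40085480-40086260), 782 bp from the TSS at exon 1 and over the TSS of the antisense gene *Gm16894*. The fold enrichment there was 7.09 and 10.6 in the WT libraries versus 9.87 and 9.23 in the mutant libraries. The region over the exon 1 TSS itself (chr1:40084496-40084934) was weaker, at 4.56 and 6.06 in the WT libraries and 5.83 in *Il2ra* mut/mut 1. It was not called in *Il2ra* mut/mut 2. Upstream, a region lay 14516 bp before the annotated gene start and 25135 bp from the TSS. It was at 9.12 and 14.7 in the WT libraries versus 14.4 and 9.23 in the mutant libraries. Another lay 17684 bp before the gene start and 28303 bp from the TSS, with an AP-1 word in its summit window. It was at 5.57 and 11.1 in the WT libraries versus 14.8 and 6.32 in the mutant libraries. For both upstream regions the nearest TSS was that of *4930456G14Rik*. The mutant libraries differed more from each other at these upstream regions than the genotype means did. A WT-unique OCR in intron 5 was called in all 4 libraries, at 7.60 and 10.6 in the WT libraries versus 5.83 and 6.32 in the mutant libraries.

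Among the 45 regions called in all 4 libraries, the median difference in percentile was 3.12 points between the WT libraries, 3.45 between the *Il2ra* mut/mut libraries and 2.71 between libraries of different genotype, against 3.83, 3.67 and 3.84 genome-wide. These regions were selected by being called in every library, and most lay at high percentiles, where a percentile moves little with fold enrichment, as at the *Ifngr1* promoter.

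The differences that passed the threshold for a shift lay among the weaker regions, and their balance moved when single libraries were left out. Of the 76 regions called in at least 2 libraries, 10 (13.2%) had both WT libraries above both mutant libraries with means at least 20 percentile points apart, and 1 (1.32%) the reverse. Genome-wide the shares were 10.9% and 14.1%. The 10 were at *Il6ra* (4), *Il12rb2* (3), *Il6st*, *Il27ra* and *Ifngr1*, and the 1 was that upstream of *Il1rl1*. The WT share is near the background, while the mutant share is below it. Over 27 other receptor chains and signalling genes, 8.43% were shifted towards WT and 7.23% towards the mutant. The 10 regions had 6 to 17 reads at their WT summits, 7 were not called in *Il2ra* mut/mut 1 and 4 not in *Il2ra* mut/mut 2, and 3 were called in all 4 libraries. Of the regions shifted towards WT genome-wide, 74.0% were not called in *Il2ra* mut/mut 1 and 69.4% not in *Il2ra* mut/mut 2. Among weak regions, 1 read could move the percentile far. In WT 1, 8 reads stood at percentile 47.8 and 9 reads at 62.4. The same 9 reads stood at 58.0 in WT 2, 39.1 in *Il2ra* mut/mut 1 and 62.3 in *Il2ra* mut/mut 2. A shift of 20 points can therefore rest on few reads. Without WT 2, 9 regions were shifted towards WT and 8 towards the mutant, without *Il2ra* mut/mut 1 the counts were 10 and 7, without WT 1 they were 20 and 2, and without *Il2ra* mut/mut 2 they were 14 and 3. The rule is looser where a genotype is left with 1 library, and genome-wide shares were not computed for it. With 2 libraries a genotype, an exact permutation test (two-sided) cannot give a p below 0.33, so no single region was tested.

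**Figure D4:**
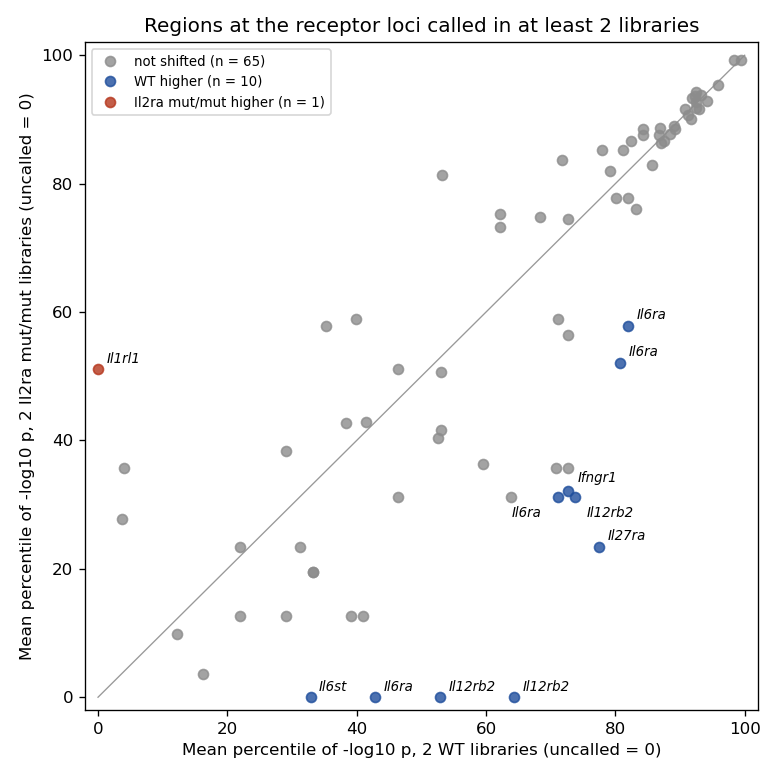
Mean percentile of −log10 p in the 2 *Il2ra* mut/mut libraries against that in the 2 WT libraries for the 76 regions called in at least 2 libraries, with uncalled libraries set to 0. Regions at high percentiles lie along the diagonal, and the 10 that ranked higher in WT lie below it.

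Called in both WT libraries and neither mutant library were 4 regions (5.26% of 76, against 6.98% genome-wide), 2 of them at *Il12rb2*. The reverse was 1 region (1.32%, against 9.20%). With 1 library left out at a time, which again loosens the rule, the first count ran from 5 to 19 and the second from 2 to 10. By IDR, the windows held 28 common OCRs, 8 unique to WT and 3 unique to the mutant, that is 20.5% WT-unique against 14.3% of all OCRs and 7.69% mutant-unique against 13.8%. Of the 8 WT-unique OCRs, 5 were called unique in each of 5 further runs with ties in rank broken differently, while the one in *Il1r2* intron 5 was unique in 1 of the 5. Of the 3 mutant-unique OCRs, 2 were unique in all 5, and the one beyond *Il6ra* in 2 of them. These runs were added after seeing the data.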

How the data were processed

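ATAC-seq was measured in LN Treg cells, 2 libraries (biological replicates, per the study's methods) per genotype, grouped by their titles. The authors aligned reads to mm10 with BWA mem (BWA 0.7.13 per the processing notes), removed duplicated and mitochondrial reads, kept concordant pairs, shifted them and called narrow peaks per library with MACS2 2.1.0. The deposited lists give, as the authors' values, a score, a linear ratio (fold enrichment), the −log10 p-value and the −log10 q-value. They hold no read totals, so depth is unknown, and levels were compared by percentile within a library.

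Peaks overlapping by 1 bp were merged and placed on GENCODE vM21 basic (GRCm38, the coordinates of mm10). The sequences were read from RefSeq GRCm38.p6. Reads at the summit were recovered from the fold enrichment, given one background per library. IDR (0.05) was a Gaussian copula mixture on −log10 p, with ties broken at random, written in Python 3.11.15 with numpy, pandas and scipy and tested on simulated data. An exact test of 2 against 2 libraries cannot pass 0.05, so none was run and counts are set beside those over all regions. Per gene, the text names the TSS region, the 2 highest-ranking other regions and every region that was unique, one-sided or shifted. The members, gene lists and motif words were chosen with earlier results of these data known. Peaks on scaffolds (317 to 349 a library) were left out. Other windows, peak thresholds, overlaps, IDR settings and shift sizes were tried, and each library was left out in turn. A further marker list is not reported here.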

Additional observations from a re-analysis of the deposited data

How the results depend on the processing

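No paired analysis was possible because the counts come from no test, and the labels do not say whether the replicate numbers pair the animals. Of 110 recomputed counts, 75 stayed within 1.5 times their value.

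With the gene body only, 0 regions were mutant-only, 0 were shifted towards the mutant and 1 OCR was mutant-unique. With 50 kb either side, 77 regions were called in all 4 libraries, 2 were mutant-only, 4 were shifted towards the mutant, 7 OCRs were mutant-unique and 50 common. With peaks of −log10 q of at least 3, 2 regions were WT-only, 6 were shifted towards WT and 2 towards the mutant. With peaks joined at 50% overlap, 0 were mutant-only, 0 were shifted towards the mutant and 5 OCRs were WT-unique. Of regions nearest to a member's TSS, 18 were called in all 4 libraries and 2 were WT-only.

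An IDR of 0.01 left 1 mutant-unique OCR. A shift of 10 points gave 2 regions towards the mutant. Among regions called in all 4 libraries, 3 were shifted towards WT and 0 towards the mutant. In an alternative chosen after seeing the data, fold enrichment at least 1.5 times apart without overlap in those regions left 1 towards WT and 0 towards the mutant.

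Leaving out 1 library at a time, where the remaining library of that genotype stands alone, the regions called in every library ran from 46 to 54, WT-only regions from 5 to 19 and mutant-only regions from 2 to 10. Shifts towards WT ran from 9 to 20 and towards the mutant from 2 to 8. WT-unique OCRs ran from 7 to 11, mutant-unique from 3 to 5 and common from 26 to 28, and 7 genes kept a TSS peak in every library. Depth limits the weak regions, which rest on few reads, so an uncalled region is not shown to be closed.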
